A study of Caenorhabditis elegans with 16 samples.

Results

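Both mature arms of the C. elegans mir-84 hairpin were followed through 16 small RNA libraries made from transcript pulldowns. The arms are listed in every library as cel-miR-84-5p and cel-miR-84-3p, and they were taken by these names as 2 of the 434 mature miRNAs listed. A miRNA hairpin is cut into a duplex, of which usually the guide strand is loaded into an Argonaute protein while the other strand, the passenger, is degraded. miR-84-5p is the guide of its hairpin and a member of the let-7 family, whose members share a seed (the bases near the 5′ end that pair first with a target) and act in the timing of larval development. Together with miR-48 and miR-241 it is known to repress hbl-1 in early larvae, and it differs from let-7 in the bases outside the seed.

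In vIPR, living worms are crosslinked with ultraviolet light and a chosen mRNA is captured from the lysate with biotinylated antisense DNA probes. Small RNA in the eluate was then sequenced and counted per mature miRNA. All libraries came from young adults, and the replicates of a target were separate pulldown experiments. GFP probes captured a gld-1::gfp transcript from strain BS1080, which carries a gld-1::gfp transgene (gld-1::gfp, n = 2), and, in strain DG3913, lin-41 mRNA carrying a gfp tag (gfp::lin-41, n = 1). Probes against gld-1 captured the endogenous transcript from the wild type N2 (gld-1, n = 2) and from a pair of strains made in N2 by CRISPR, which carry an edit of the predicted miR-84 site of gld-1. In one the complement of the seed was disrupted (seed destruction, n = 2), and in the other bases outside it were replaced with the aim of a site that pairs with let-7 (changed specificity, n = 2). Endogenous alg-1 (n = 2) and lin-41 (n = 2) were captured from N2 with their own probes. The no-target control used the GFP probes on N2 worms, which have no gfp (control, n = 3).

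gld-1 encodes a translational repressor of the germline, lin-41 is a classical let-7 target, and alg-1 encodes an Argonaute protein of the miRNA pathway. Total miRNA reads ranged from 12474 to 2081849 per library, with the 3 controls holding 12474 to 73899. Intervals printed here cover counting error only, because copies made by PCR were not separated from molecules. The muscle miRNA miR-1-3p had 0 to 8 reads per library. The germline and embryo miRNAs miR-35-3p to miR-42-3p took 0.299% to 0.879% of the reads in the 4 unedited gld-1 and gld-1::gfp libraries and 2.29% to 10.1% in the controls. They took 0.126% to 3.77% in the remaining libraries, and their part in the miR-84 results was not tested. A pulldown library does not separate more captured transcript from more miRNA per transcript, nor the number of cells from the RNA in each.

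The mir-84 gene (WBGene00003312) lies on the X chromosome of the WBcel235 assembly, on the minus strand at chrX:16022404-16022478. The annotation places a mature RNA at chrX:16022447-16022470, towards the 5′ end of the precursor (the 5p arm), and another at chrX:16022410-16022432, towards its 3′ end (the 3p arm). No other annotated gene overlaps the hairpin.

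miR-84-5p was the most abundant miRNA in all 4 libraries of unedited gld-1, endogenous or transgenic, and in no other library. It had 1257290 and 356036 reads in gld-1::gfp replicates 1 and 2. In gld-1 it had 67538 and 175840 reads. Every one of these counts was above every count outside these 4 libraries, where miR-84-5p had 130 to 3108 reads. In alg-1 it had 3108 and 2717 reads and ranked 7th and 5th among the miRNAs of its library. In lin-41 it had 663 and 455 reads, and in gfp::lin-41 1328 reads. Reads in the lin-41 pulldowns were thus as many as or more than in most controls, but these libraries were also deeper. The edited strains had 385 and 594 reads in changed specificity and 150 and 182 in seed destruction. The controls had 555, 130 and 198 reads. Raw counts of the edited strains and the controls overlapped.

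**Figure D1:**
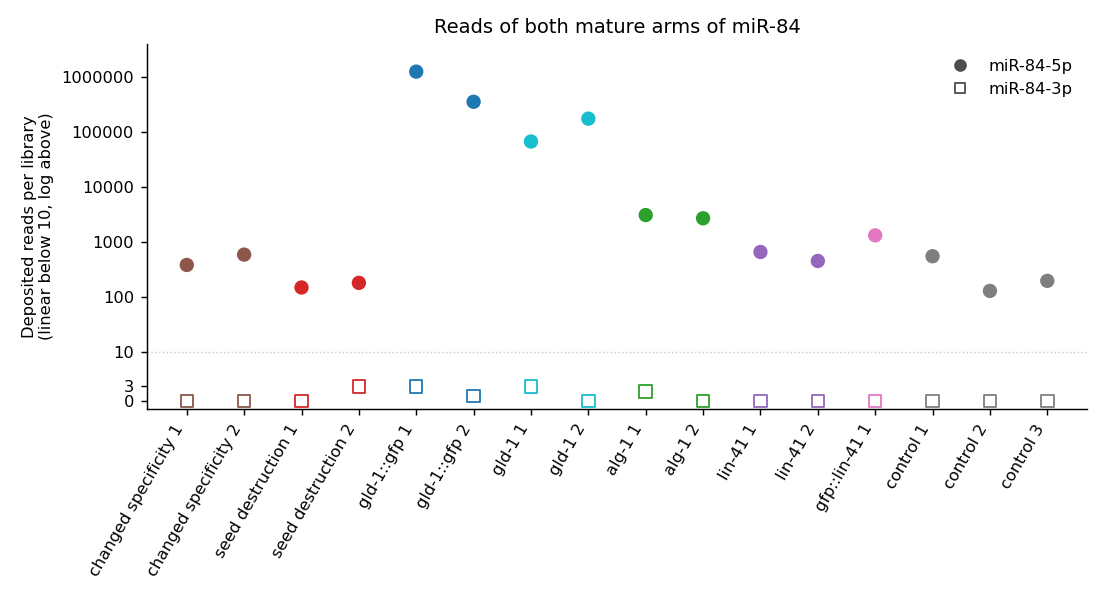
Deposited reads of miR-84-5p (filled circles) and miR-84-3p (open squares) in each of the 16 libraries, named by group and replicate, on an axis that is linear below 10 reads and logarithmic above. The 5p arm has between 67538 and 1257290 reads in the 4 unedited gld-1 libraries and at most 3108 elsewhere, while the 3p arm has 0 to 3 reads in every library.

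As a share of all miRNA reads in its library, miR-84-5p took 66.3% (95% Wilson interval 66.2 to 66.3) and 62.4% (62.2 to 62.5) in gld-1::gfp. It took 37.3% (37.1 to 37.5) and 43.1% (42.9 to 43.2) in gld-1. Shares in the transgene pulldown were thus above those of the endogenous transcript in both replicates, and the counting intervals are far narrower than the gap between replicates. In alg-1 the shares were 1.93% (1.87 to 2.00) and 2.15% (2.07 to 2.23). The lin-41 libraries held 0.0628% (0.0582 to 0.0678) and 0.278% (0.254 to 0.305), and gfp::lin-41 held 0.0638% (0.0605 to 0.0673). Changed specificity held 0.0318% (0.0288 to 0.0351) and 0.0702% (0.0648 to 0.0761), and seed destruction 0.122% (0.104 to 0.143) and 0.177% (0.153 to 0.205). Libraries of these last 4 groups were thus all under 0.3%. The controls held 0.751% (0.691 to 0.816), 0.305% (0.257 to 0.362) and 1.59% (1.38 to 1.82). Both alg-1 libraries lay above all 3 controls, which themselves spanned a wide range, and the 7 lin-41, gfp::lin-41 and edited libraries lay below the lowest control.

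**Figure D2:**
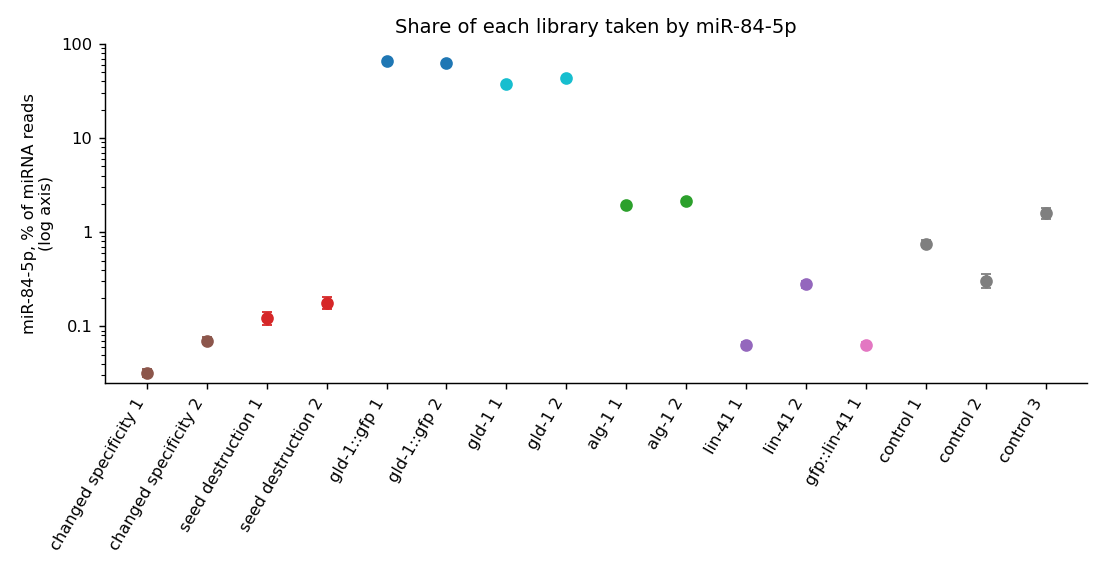
Share of the miRNA reads of each library taken by miR-84-5p, in percent on a log axis, with 95% Wilson intervals as bars (often smaller than the point). The 4 unedited gld-1 libraries lie between 37.3% and 66.3%, alg-1 near 2%, and the edited, lin-41 and gfp::lin-41 libraries between 0.0318% and 0.278%, below the 3 controls.

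A share depends on what else is in the library, and let-7-5p filled most of the lin-41, gfp::lin-41 and changed specificity libraries. Relative to the reads of all miRNAs other than let-7-5p and miR-84-5p, there were 224 and 196 miR-84-5p reads per 100 such reads in gld-1::gfp. gld-1 had 62.3 and 79.1, and alg-1 had 2.50 and 2.76. The order of these 3 pulldowns was thus that of the shares. In lin-41 there were 0.395 and 0.831 per 100, in gfp::lin-41 0.247, in changed specificity 0.654 and 0.643 and in seed destruction 0.135 and 0.189. The controls had 0.785, 0.322 and 1.73 per 100. On this base gld-1::gfp, gld-1 and alg-1 stayed above every control, lin-41 and changed specificity lay within the range of the controls, and gfp::lin-41 and both seed destruction libraries were below it.

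Normalised abundance was obtained from TMM scaling, which sets the bulk of the miRNAs equal between libraries, and is given as log2 CPM, counts scaled to the effective library size. In gld-1::gfp it was 20.28 and 20.69, and in gld-1 18.16 and 19.33. alg-1 followed at 13.46 and 14.03. These 3 groups did not overlap one another or any other group. Next came lin-41 at 11.26 and 12.12, changed specificity at 11.01 and 10.97 and gfp::lin-41 at 10.90, while seed destruction was lowest at 8.82 and 9.15. The controls were at 10.76, 9.33 and 11.55. Of the lin-41, changed specificity and gfp::lin-41 libraries, all but lin-41 replicate 2 lay within the range of the controls, so this middle part of the order is not separated beyond the spread, and both seed destruction libraries lay under it.

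Whether miR-84-5p was retrieved with gld-1 was tested against the no-target control. Its log2 fold change over the control was 9.70 in gld-1::gfp (SE 0.76, edgeR quasi-likelihood adjusted p = 1.40e-10) and 8.07 in gld-1 (SE 0.72, edgeR adjusted p = 2.07e-09). With both pulldowns averaged, the difference was 8.89 (SE 0.72, edgeR adjusted p = 3.01e-10). Of the 112 miRNAs abundant enough to be tested, 11.6% were called higher in gld-1::gfp, 15.2% in gld-1 and 13.4% in the average of both, so a call of this direction alone was not rare. Library totals as the only scaling gave 6.19, 5.52 and 5.86 for these comparisons, and on every alternative tried each stayed past the threshold. Library names carry prefixes (E, PD1, PD2, PD3 or none), whose meaning is not given in the sources used here. Within prefix E the difference of gld-1::gfp and the control was 9.52, within PD1 it was 9.14, and that of gld-1 and the control within PD1 was 7.78, each between single libraries. The gld-1 libraries used other probes than the control, so transcript and probe set cannot be told apart in that comparison. gld-1::gfp shares its probes with the control but differs from it in strain.

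Endogenous gld-1 and the transgene were compared because they differ in strain and in probes. miR-84-5p was 1.63 higher in gld-1::gfp than in gld-1 (SE 0.65, edgeR adjusted p = 0.120), a difference that did not pass the threshold, while 5.36% of the miRNAs tested were called higher. The call was not stable to single libraries: the value was 1.63 (edgeR adjusted p = 0.0438) without control replicate 2 and 2.56 (edgeR adjusted p = 0.0463) without gld-1::gfp replicate 1. With the name prefix in the model it was 1.50 (edgeR adjusted p = 0.0349), and the single pair of libraries sharing PD1 differed by 1.35.

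Pulldowns of the edited gld-1 transcripts asked whether the predicted site is needed, and miR-84-5p was far lower in them. Against gld-1, its normalised log2 abundance fell by 9.89 in seed destruction (SE 0.93, edgeR adjusted p = 6.77e-09) and by 7.88 in changed specificity (SE 0.86, edgeR adjusted p = 1.36e-07). Calls were few in these comparisons, with 1.79% of the miRNAs tested lower in seed destruction and 0.893% in changed specificity, where miR-84-5p was the 1 miRNA called lower. Averaged over both edited strains and both unedited pulldowns, the change was -9.70 (SE 0.65, edgeR adjusted p = 3.87e-12), beside 3.57% of miRNAs called lower. In shares the unedited gld-1 mean was 269 times that of seed destruction and 787 times that of changed specificity. The share in changed specificity is lowered by let-7-5p, which filled most of those libraries. Relative to reads other than let-7-5p and miR-84-5p, the means were 70.7% in gld-1, 0.162% in seed destruction and 0.648% in changed specificity. On that base seed destruction was the lower of the edited strains, as with TMM. These calls held in all 27 alternatives each. Within prefix PD3, the single libraries differed by -9.34 for seed destruction and -7.15 for changed specificity against gld-1.

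The edited strains were also set against the background of the control. miR-84-5p in seed destruction was lower than in the control by this model (log2 fold change -1.82, SE 0.62, edgeR adjusted p = 0.0424), beside 6.25% of miRNAs called lower. The direction was the same in all 27 alternatives, but the call was lost in 17 of them, among which were 10 of the 16 fits that leave out 1 library. Their values lay between -2.22 and -1.23, and adjusted p reached 0.294 without seed destruction replicate 1. No control library shares a prefix with a seed destruction or changed specificity library, so prefix and group cannot be told apart there by direct comparison. The edited strains were captured with gld-1 probes and the control with GFP probes, so probe set and group cannot be told apart there either.

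In changed specificity, the log2 fold change of miR-84-5p over the control was 0.19 (SE 0.58, edgeR adjusted p = 0.802), beside 14.3% of miRNAs called higher. This direction depended on the scaling: with library totals alone the value was -4.11 (edgeR adjusted p = 1.40e-04), under which the median over all miRNAs also moved to -4.39, against -0.21 with TMM. Without control replicate 2 it was -0.21. Changed specificity and seed destruction differed by 2.01 (SE 0.66, edgeR adjusted p = 0.201), with 1.79% of miRNAs called higher. Library totals turned this to -1.55 (edgeR adjusted p = 0.0603, median over all miRNAs -3.66), whereas the prefix term (2.02, edgeR adjusted p = 4.34e-04) and a fit of the compared groups alone (1.97, edgeR adjusted p = 0.0200) brought it past the threshold, as did leaving out control replicate 2 (2.01, edgeR adjusted p = 0.0443). Within PD3 and within the libraries without a prefix, changed specificity was higher by 2.19 and 1.82.

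Whether miR-84-5p also came down with other transcripts was asked of alg-1 and lin-41. In alg-1 it rose 2.98 above the control (SE 0.59, edgeR adjusted p = 4.06e-04), beside 16.1% of miRNAs called higher. Within PD2 the single libraries differed by 4.13 and within PD1 by 2.48, and library totals alone gave 1.22 (edgeR adjusted p = 0.152), with a median over all miRNAs of -1.51. In lin-41 it was 0.95 above the control (SE 0.57, edgeR adjusted p = 0.283), beside 13.4% called higher. Library totals reversed this to -2.37 (edgeR adjusted p = 0.00695, median over all miRNAs -3.63), the prefix term made it 1.68 (edgeR adjusted p = 0.00486), and within PD2 the single libraries differed by 1.93. The level in gld-1 exceeded that in alg-1 by 5.09 (SE 0.75, edgeR adjusted p = 1.03e-05), beside 8.04% called higher, and by 5.30 between the libraries sharing PD1. This comparison and those of gld-1 and alg-1 with the control share libraries. The control was captured with GFP probes, and alg-1, lin-41 and gld-1 each with their own. Transcript and probe set therefore cannot be told apart in these comparisons. The single gfp::lin-41 library has no replicate and was not tested.

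**Figure D3:**
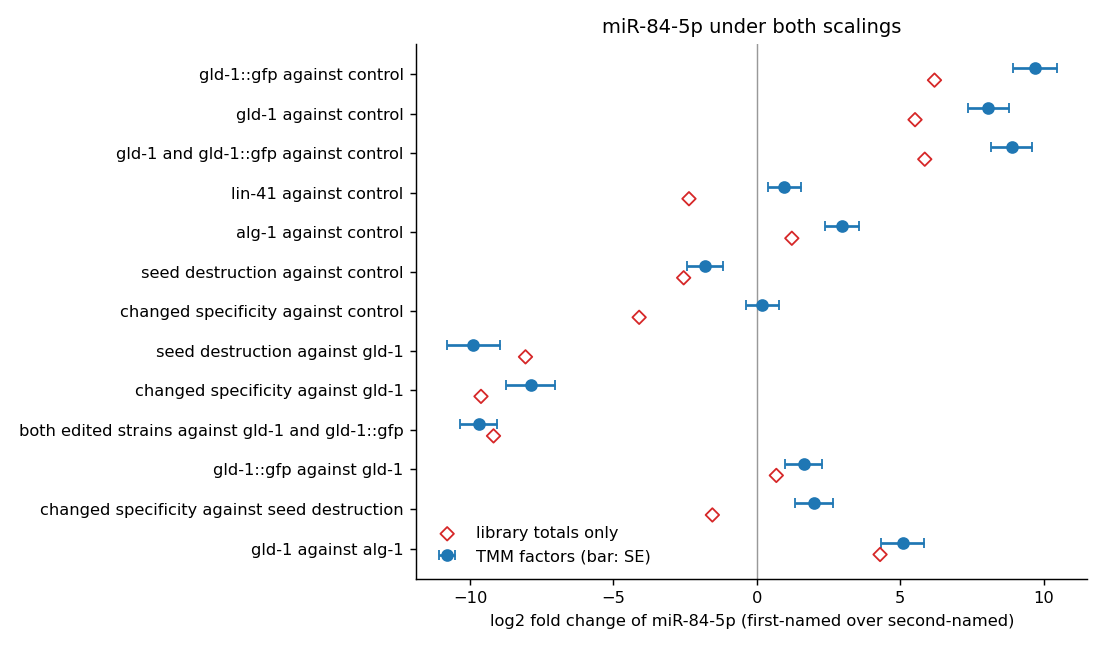
log2 fold change of miR-84-5p in 13 comparisons, the first-named group over the second-named, from TMM scaling (filled circles with SE) and from library totals only (open diamonds). The gain in unedited gld-1 over the control and the loss in the edited strains keep their direction, while lin-41 and changed specificity against the control and changed specificity against seed destruction lie on opposite sides of 0 under the 2 scalings.

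A regression of each library on the mean of the controls, over miRNAs with at least 1 read in both, gives a further measure that needs no scaling factor. The residual of miR-84-5p on the log2 scale was 10.08 and 10.29 in gld-1::gfp and 8.02 and 9.27 in gld-1, the highest residual of 107 to 114 miRNAs in each of these libraries. In alg-1 it was 2.87 and 3.97, with ranks 10 and 6. In lin-41 it was 1.06 and 1.81, in gfp::lin-41 0.47 and in changed specificity 0.75 and 0.99, with ranks between 10 and 32. In seed destruction it was -1.10 and -0.71, with ranks 79 of 107 and 81 of 113. With control library 3 alone as the base, gfp::lin-41 and changed specificity turned negative on average (-0.85 and -0.42). miR-84-3p entered no regression, since the controls held none of its reads.

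miR-84-5p was then read against its closest relatives within each library, a view that scaling between libraries does not touch. Of the reads summed over miR-84-5p and the relatives let-7-5p, miR-241-5p and miR-48-5p, miR-84-5p made up 92.9% and 90.3% in gld-1::gfp and 90.6% and 92.7% in gld-1. let-7-5p held 5.32% to 8.40% in these 4 libraries. The 4 values of miR-84-5p lay within 3 percentage points of each other, although the sum of these 4 arms, called the family here, ran from 41.2% to 71.3% of the library. In alg-1 miR-84-5p held 7.59% and 8.71% of the family, where let-7-5p held 80.7% in both libraries. In seed destruction miR-84-5p held 0.865% and 1.96%, in lin-41 0.0743% and 0.413%, in gfp::lin-41 0.0856% and in changed specificity 0.0333% and 0.0785%. let-7-5p held 98.3% or more of the family in the last 3 of these groups, but 68.7% and 68.2% in seed destruction. In the controls miR-84-5p held 10.2%, 3.88% and 12.4% of the family. alg-1 lay inside this range, and every edited, lin-41 and gfp::lin-41 library lay below it. In alg-1 miR-84-5p was thus above the controls beside all miRNAs but not as a share of this family sum. let-7-5p, most of that sum, was itself higher in alg-1 than in the control (log2 fold change 3.74, SE 0.60, edgeR adjusted p = 2.80e-05). Beside miR-241-5p alone, the log2 ratio of miR-84-5p was 0.22 and 0.61 in alg-1 and -0.008, -1.21 and -0.40 in the controls. miR-241-5p is no fixed standard there, since it was itself higher in alg-1 than in the control (2.12, SE 0.54, edgeR adjusted p = 0.00414). So was the relative miR-795-5p (4.06, SE 0.81, edgeR adjusted p = 4.24e-04), while miR-48-5p, miR-48-3p, miR-241-3p and miR-793 were not called. The rise in alg-1 was thus shared by several let-7 relatives.

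**Figure D4:**
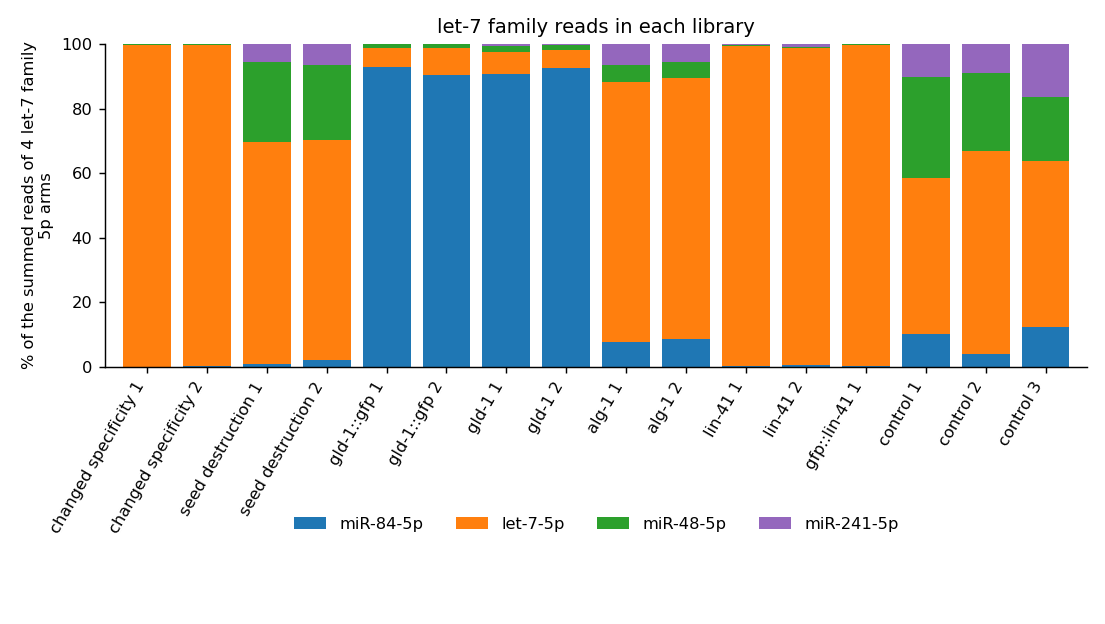
Make-up of the summed reads of 4 let-7 family 5p arms in each library, in percent, with miR-84-5p at the bottom, then let-7-5p, then miR-48-5p, then miR-241-5p at the top. miR-84-5p fills 90.3% to 92.9% of the bar in the 4 unedited gld-1 libraries, let-7-5p 98.3% or more in changed specificity, lin-41 and gfp::lin-41, and let-7-5p holds 68.7% and 68.2% in seed destruction, where miR-84-5p holds 0.865% and 1.96%.

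Because let-7-5p moved strongly itself, miR-84-5p was also set against miR-48-5p alone. On the log2 scale the ratio of their reads was 6.34 and 6.28 in gld-1::gfp and 5.64 and 5.81 in gld-1. In alg-1 it was 0.55 and 0.82. All of these lay above 0, and all others below it. lin-41 was at -2.18 and -0.18 and gfp::lin-41 at -1.79, changed specificity at -2.68 and -2.26 and seed destruction at -4.84 and -3.56. The controls were at -1.61, -2.62 and -0.67. Both seed destruction libraries were below every control, changed specificity replicate 1 lay just under the lowest of them, and lin-41 replicate 2 was above the highest. miR-48-5p is no fixed standard, since its own normalised abundance was 2.00 higher in gld-1::gfp than in the control (SE 0.54, edgeR adjusted p = 0.0110) and 0.92 higher in gld-1 (SE 0.54, edgeR adjusted p = 0.231). The log2 fold change of let-7-5p over the control was 3.53 in gld-1::gfp (SE 0.59, edgeR adjusted p = 5.17e-05) and 1.55 in gld-1 (SE 0.57, edgeR adjusted p = 0.0488). That of miR-241-5p was -0.55 in gld-1::gfp (SE 0.56, edgeR adjusted p = 0.565) and -0.10 in gld-1 (SE 0.55, edgeR adjusted p = 0.902). A read that fits several members of the family could have been counted for more than one of them, which was not tested.

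The 3p arm was all but absent everywhere. It had 3 and 1 reads in gld-1::gfp replicates 1 and 2 and 3 and 0 reads in gld-1. alg-1 had 2 and 0 reads, and seed destruction 0 and 3. Changed specificity, lin-41, gfp::lin-41 and the controls had 0 reads in each library. These 12 reads in 5 libraries compare with 1867169 reads of the 5p arm over the 16 libraries. The libraries with most 3p reads were thus not only those with most 5p reads: 3 reads were counted beside 1257290, beside 67538 and beside 182 reads of the 5p arm.

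Whether the passenger arm was retrieved with gld-1 like the guide was asked first of the counts. No library had over 3 reads of miR-84-3p, so no fold change is given, and the filter on low counts removed it. In a fit with no such filter, over the 259 miRNAs with a read, edgeR called it in 0 of 13 comparisons (adjusted p from 0.489 to 1), with 0 at an unadjusted p under 0.05 and a smallest unadjusted p of 0.128. lin-41 and changed specificity against the control had 0 reads of miR-84-3p on both sides, so no call was possible there. With at most 3 reads in any library, the lack of a call elsewhere is no evidence that the arm did not change. In the same fit 5.02% of miRNAs were called higher in gld-1::gfp and 5.79% in gld-1 against the control. DESeq2 made 0 calls, with 0 at an unadjusted p under 0.05 and no adjusted p in 8 of the 13. Library totals as the only scaling brought changed specificity against seed destruction past the threshold (edgeR adjusted p = 0.0297), a comparison of 0 reads in both changed specificity libraries with 0 and 3 reads in seed destruction.

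Per 1000000 miRNA reads, the 4 unedited gld-1 libraries together held 2.29 reads of miR-84-3p (exact Clopper-Pearson 95% interval 0.920 to 4.72), and the other 12 libraries 0.834 (0.271 to 1.95). The intervals overlap. On the base of reads other than let-7-5p and miR-84-5p, a choice made after the data were seen, the rates were 6.52 (exact Poisson 95% interval 2.62 to 13.4) in the unedited gld-1 libraries and 3.42 (1.11 to 7.97) in the others, and these intervals overlap too. They do not where miR-84-5p alone is left out and let-7-5p stays in the base, at 5.83 (Clopper-Pearson 2.34 to 12.01) in the unedited gld-1 libraries and 0.835 (0.271 to 1.95) in the others. This base drops the most abundant miRNA of the unedited gld-1 libraries. It keeps let-7-5p, which filled most of the lin-41, gfp::lin-41 and changed specificity libraries and so lowers the rate of the others. Single libraries did overlap, with 1.58, 1.75, 16.6 and 0 reads per 1000000 miRNA reads in the unedited gld-1 libraries and 29.2 in seed destruction replicate 2. The 3 controls together held 128995 reads, in which 0 reads allow up to 23.3 per 1000000 by a floor of 3 reads, and up to 28.6 by the exact Clopper-Pearson interval. A rate as low as that of the unedited gld-1 libraries was therefore not detectable in the controls at this depth.

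The share of the 3p arm among all reads of miR-84 was 2.39e-04% (exact Clopper-Pearson 95% interval 4.92e-05 to 6.97e-04) and 2.81e-04% (7.11e-06 to 0.00156) in gld-1::gfp. It was 0.00444% (9.16e-04 to 0.0130) in gld-1 replicate 1, while replicate 2 had 0 of 175840 reads. Where no read was counted, the limit given here is the share that 3 reads would make, which is somewhat lower than the exact upper bound, and for this library it is 0.00171% (exact bound 0.00210%). In alg-1 replicate 1 it was 0.0643% (0.00779 to 0.232), with a 3-read limit of 0.110% in replicate 2 (exact bound 0.136%). In seed destruction replicate 2 it was 1.62% (0.336 to 4.67), with a 3-read limit of 2% in replicate 1 (exact bound 2.43%). The intervals of gld-1::gfp lie below that of alg-1 replicate 1, and all 3 unedited libraries with a 3p read lie below that of seed destruction replicate 2. In the 3 controls, 0 reads beside 555, 130 and 198 reads of the 5p arm give 3-read limits of 0.541%, 2.31% and 1.52%. These limits are above the shares seen in every unedited gld-1 library, so the controls do not show which share the 3p arm has in the background.

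**Figure D5:**
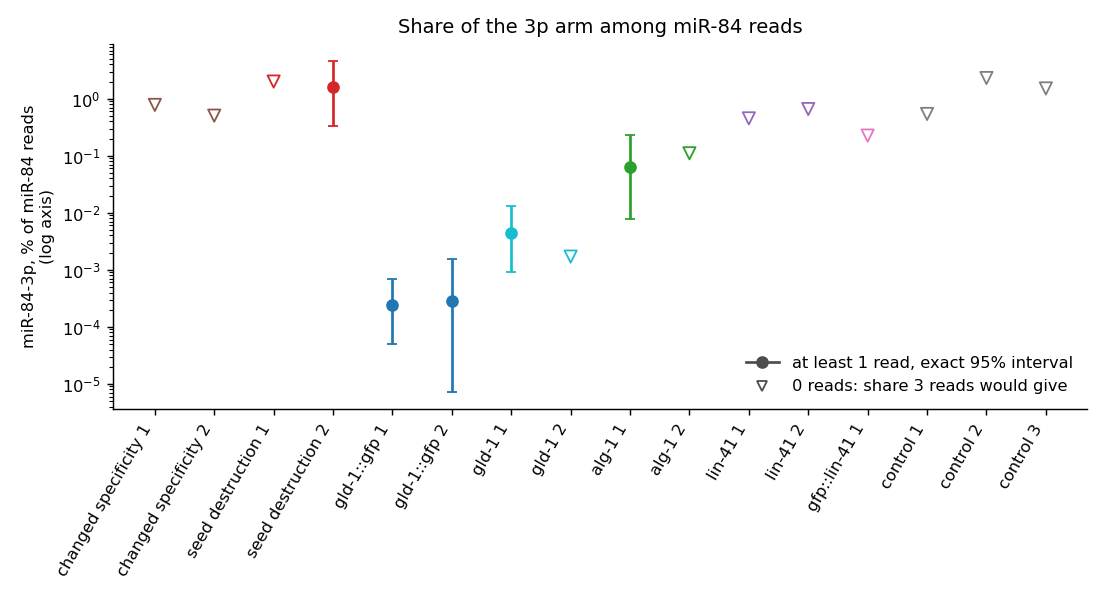
miR-84-3p as a percentage of all miR-84 reads in each library, on a log axis, with exact 95% intervals where at least 1 read was counted (circles) and the share that 3 reads would give where none was (open triangles). The unedited gld-1 libraries reach at most 0.00444%, alg-1 replicate 1 is at 0.0643% and seed destruction replicate 2 at 1.62%, while the limits in the other libraries lie between 0.110% and 2.31%, apart from 0.00171% in gld-1 replicate 2.

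The unedited gld-1 libraries held 7 reads of the 3p arm beside 1856704 of the 5p arm, and the other 12 libraries 5 beside 10465. At the ratio of the other 12 libraries, the unedited ones would have held 887 reads of the 3p arm, or 361 if seed destruction replicate 2 is left out. Reads of 1 library are not replicates, and this is a description. Over libraries, the log2 ratio of 5p to 3p reads (with a pseudocount of 0.5) was 17.24 ± 2.02 in the unedited gld-1 libraries (SD, n = 4) and 9.57 ± 1.74 in all other pulldowns (SD, n = 12), and the lowest of the unedited libraries (14.24) was above the highest of the others (12.41). The difference of 7.68 had an exact two-sided permutation p of 5.49e-04, the smallest that 4 libraries against 12 allow, and 0.00165 after Benjamini-Hochberg adjustment over 3 such comparisons. With so few 3p reads anywhere, the ratio largely restates the 5p count, which already separated these libraries. The p is therefore no test of whether the 3p arm followed the 5p arm. The same holds for the comparisons of this ratio that follow.

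Against the 3 controls (8.93 ± 1.08, SD) the ratio of the unedited gld-1 libraries was higher by 8.32, with an exact two-sided permutation p of 0.0286 that is the smallest 4 against 3 allow (adjusted 0.0286). The edited strains (8.44 ± 2.00, SD, n = 4) differed from the unedited libraries by -8.81 (exact two-sided permutation p of 0.0286, adjusted 0.0286, again the smallest possible). The call against the control was lost with a pseudocount of 0.1 (difference 6.78, exact permutation p of 0.0571), with permutation within replicate numbers (0.111) and without any 1 library (0.0667 to 0.1), and that of the edited strains with permutation within replicate numbers (0.0556). Apart from the pseudocount, these designs cannot give a smaller p. A few 3p reads moved the ratio as well as the 5p count did: it was 14.24 and 18.42 in the gld-1 replicates, with 3 and 0 reads of the 3p arm. Where the 3p count was 0 the ratio is set by the 5p count and the pseudocount and is no estimate of the true ratio.

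Other hairpins had a rare arm too. Over the 16 libraries miR-84-3p made up 6.43e-04% of both arms (exact 95% interval 3.32e-04 to 0.00112). let-7-3p, the passenger of let-7, had 13 reads beside 4652402 of let-7-5p, which is 2.79e-04%. miR-48-3p had 69 reads beside 51019 (0.135%), miR-241-3p 782 beside 15610 (4.77%) and miR-795-3p 0 beside 985. Among the 47 hairpins with both arms listed and at least 1000 reads in all, the less abundant arm held 0.223% of the reads in the median, and mir-84 had the 4th lowest value. These values pool all 16 libraries, and 1856704 of the 1867169 reads of miR-84-5p came from the 4 unedited gld-1 libraries. In the other 12 libraries together, miR-84-3p made up 0.0478% of both arms (exact 95% interval 0.0155 to 0.111). The rank thus depends on which transcripts were pulled down and is no trait of the hairpin alone. miR-48-3p reached its highest count, 24 reads, and miR-241-3p its highest, 216 reads, in gld-1::gfp replicate 1, one of the deepest libraries, where miR-84-3p had 3. For miRNAs called higher over the control, the other arm was looked up where it passed the filter. It was called higher in 0 of 5 cases in gld-1, 0 of 5 in gld-1::gfp, 0 of 7 in lin-41 and 0 of 6 in alg-1. Over all miRNAs tested, 15.2%, 11.6%, 13.4% and 16.1% were called higher, so 0 among so few arms shows little by itself.

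Across the 16 libraries, the miRNAs whose normalised log2 CPM followed that of miR-84-5p most closely were miR-8187-3p and miR-8188-5p (Spearman rho 0.62 each) and miR-72-5p (0.49). The first pair had the same count in every library but 1, where they had 372 and 371 reads in gld-1::gfp replicate 1. The points share libraries, depth and scaling factors, so these values are descriptions only. miR-8187-3p also had 199 reads in gld-1::gfp replicate 2 and 99 in gfp::lin-41, where miR-84-5p was low. Elsewhere it had at most 15 reads, with 10 and 13 in gld-1 and 0, 0 and 1 in the controls. Most of its ranks thus rest on counts near the floor. miR-72-5p also shows where the likeness ends: it took 21.1% and 22.9% of the reads in gld-1::gfp and 4.96% and 2.18% in gld-1, but 19.9% in gfp::lin-41 and 11.3% and 23.4% in lin-41, where miR-84-5p was low. miR-84-3p was too rare for such a comparison.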

How the data were processed

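Small RNA libraries were prepared by the authors with a SMARTer kit, which adds a poly(A) tail. Per the study's methods and processing notes, adaptors were trimmed with cutadapt 1.14, reads matching Escherichia coli were removed with Bowtie2 2.3.3.1, and reads of known miRNAs were counted with miRDeep2. The deposited values are whole-number counts per mature miRNA and precursor, without normalisation. Each table had 452 rows for 434 mature miRNAs, and the largest row was kept for the 15 miRNAs with several rows.

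Groups and replicate numbers follow the sample titles. The members and lists were chosen with earlier results of these data known. edgeR 4.0.16 (R 4.3.3) was fitted to all 16 libraries with 1 mean per group, TMM factors (0.155 to 5.32) and robust quasi-likelihood dispersions. A miRNA was tested if 2 or more libraries held 10 or more of its reads, which kept 112 miRNAs and 99.8% or more of any library's reads. p-values were adjusted by Benjamini-Hochberg within a comparison, with a threshold of 0.05. miR-84-3p was tested in a fit without that filter (259 miRNAs). The printed SE was derived from the log2 fold change and the F statistic. Named miRNAs were the miR-84 arms, the let-7 family list and the 3 miRNAs of highest Spearman rho. The fit was tested on data simulated from the mean of the controls, with as many miRNAs raised as lowered in gld-1. This was not set up to copy libraries filled mostly by let-7-5p or miR-84-5p, so it is no check of the scaling in them. Alternatives were other scalings (RLE, library totals, upper quartile), other filters, DESeq2 1.42.0, no robust estimation, summed precursor rows, the compared groups alone, a replicate block, the name prefix and each library left out. Replicates were distinct libraries.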

Additional observations from a re-analysis of the deposited data

Results flagged for a closer look

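The log2 ratio of 5p to 3p reads of miR-84 in gld-1 replicate 1 (14.24) stood apart from the other 3 unedited gld-1 libraries (17.86 to 18.45). Its gap to the nearest library was 0.858 of the whole range and past Dixon's 95% critical value for 4 samples. Chance alone gives such a gap in about 1 in 20 groups, and 4 groups of values were examined. The library had 3 reads of the 3p arm beside 67538 of the 5p arm.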

How the results depend on the processing

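The calls of miR-84-5p in unedited gld-1 over the control and over alg-1, and in the edited strains below unedited gld-1, held in every alternative. For the rest, log2 fold changes with edgeR adjusted p follow. Library totals gave 1.22 (0.152) for alg-1, -2.37 (0.00695) for lin-41 and -4.11 (1.40e-04) for changed specificity against the control, and -1.55 (0.0603) for changed specificity against seed destruction. The name prefix gave 1.68 (0.00486) for lin-41 and -1.41 (0.101) for seed destruction against the control, 1.50 (0.0349) for gld-1::gfp against gld-1 and 2.02 (4.34e-04) for changed specificity against seed destruction, which was 1.97 (0.0200) with the compared groups alone. For seed destruction against the control, the compared groups alone gave -1.67 (0.152), RLE factors -1.87 (0.109), upper-quartile factors -1.48 (0.104), summed rows -1.68 (0.113) and no robust estimation -1.82 (0.0518). Leaving out each library gave -2.22 to -1.23 there, -0.21 to 0.77 for changed specificity against the control, 1.67 to 2.19 for changed specificity against seed destruction and 1.16 to 2.56 for gld-1::gfp against gld-1. A lone library in a group is assumed to vary like the others. The cause was not tested.

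Same-numbered libraries had a mean correlation of deviations of -0.0311 (42 pairs, -0.489 to 0.521), which gave no sign that the numbers pair them. In groups of 2 libraries the deviations mirror each other, so many pairs repeat a value. The mean therefore cannot exclude pairing. The replicate block gave -1.32 (adjusted p 0.151) for miR-84-5p in seed destruction against the control and changed no other call of miR-84-5p. With the block as numbered and with gld-1 numbers crossed, a choice made after the data were seen, 9 and 11 miRNAs were called in gld-1::gfp against gld-1, 2 and 2 in seed destruction and 3 and 4 in changed specificity.

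For miR-84-3p only library totals made a call (adjusted p 0.0297), and no value exists with a filter on low counts. For the ratio of arms, the block gave exact permutation p of 0.0556 (edited strains, -8.81) and 0.111 (unedited gld-1 against the control, 8.32), each the smallest it allows. Against the control a pseudocount of 0.1 gave 6.78 (exact p 0.0571), and leaving out a library 7.87 to 9.32 with exact p of 0.0667 to 0.1, where 0.05 cannot be reached.

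In the regression, control library 2 as the base gave 4.27 in alg-1, 1.73 in changed specificity, 1.58 in gfp::lin-41, 11.21 in gld-1::gfp, 2.26 in lin-41 and -0.074 in seed destruction. Control library 3 gave 2.19 in alg-1, 7.41 in gld-1, -0.42 in changed specificity, 8.74 in gld-1::gfp, -0.85 in gfp::lin-41, 0.13 in lin-41 and -2.14 in seed destruction, and control library 1 gave 10.01 in gld-1::gfp.

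Counts of calls moved too. Library totals called 85 in gld-1::gfp against the control (14 with TMM), 56 in gld-1 (25), 83 in the average of both (23), 37 in alg-1 (24), 85 in lin-41 (20), 12 in seed destruction (20) and 91 in changed specificity (24), and 33 in changed specificity against gld-1 (3) and 98 against seed destruction (2). The prefix term called 33 in gld-1::gfp and 34 in seed destruction against the control, 18 in the averaged edits (7), and against gld-1 12 in changed specificity and 10 in seed destruction. The compared groups alone called 7 in gld-1::gfp and 13 in lin-41 against the control, 13 in the averaged edits and 5 where seed destruction met gld-1. RLE and summed rows called 1 there (2). Against the control, leaving out 1 library gave 14 in alg-1 (replicate 2 out), 12 in changed specificity (1 out), 16 in gld-1 (1 or 2 out), 12 in lin-41 (2 out) and 8 in seed destruction (1 out).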
